A study of Mus musculus with 7 samples.

Results

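The chaperone and heat shock genes were taken as every gene symbol that starts with Hspa, Hspb, Hspd, Hspe, Hsph, Hsp90 or Dnaj, together with Tcp1 and the numbered Cct symbols, without pseudogene symbols ending in -ps. The rule found 82 symbols in the gene reference of every library, and 81 of these carried the same gene ID in all 7 matrices, among 27514 gene IDs that all matrices share. Hspa14, the member left over, has different gene IDs in the references of the 2 library kits and is given by its levels only. Cct6a, a subunit of the chaperonin ring, was not analysed here. The rule works on letters and uses no measured value, and it also takes in Hspb11, a component of cilia transport, and Hspbp1 and Hspbap1, which are named after heat shock proteins that they bind.

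Molecular chaperones bind unfolded or newly made proteins and help them to reach or keep their folded state. The Hsp70 proteins (Hspa genes) take up short unfolded segments in cycles of ATP hydrolysis, the J-domain proteins (Dnaj genes) bring them their clients and start the hydrolysis, and the Hsp90 proteins finish the folding of kinases and receptors. Hsp60 (Hspd1) and Hsp10 (Hspe1) form the folding chamber of the mitochondrial matrix, and the Cct proteins with Tcp1 form the ring that folds actin and tubulin in the cytosol. Some members are made at all times, and others are switched on by heat shock factor 1 when cytosolic proteins unfold or by the unfolded protein response when proteins unfold in the endoplasmic reticulum (ER). T cells that leave rest and begin to divide make far more protein than before, which is why chaperones are of interest in T cell activation.

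The study profiled TCRαβ+ T cells that were taken from spleen of male C57BL/6 mice, an inbred strain, at 8 weeks of age, with droplet single-cell RNA sequencing from the 3′ end of transcripts. Double negative T cells (DNT) carry the TCRαβ receptor but neither CD4 nor CD8, and all libraries were sorted as CD3+, NK1.1-, TCRαβ+ and TCRγδ-. Naive DNT cells (2 libraries) were sorted as CD4- and CD8- and also negative for the CD1d tetramers aGal-CD1d and LPC-CD1d, which bind natural killer T cells. Activated DNT cells (2 libraries) came from sorted naive DNT cells after 3 days of culture under anti-CD3/CD28 and 20 ng/ml interleukin-2, so that stimulation and culture cannot be told apart. CD4 cells (CD4+CD8-), CD8 cells (CD4-CD8+) and all TCRαβ T cells (TCRab, with no gate on CD4 or CD8) have 1 library each. The design text calls the 2 DNT libraries of a group biological replicates, and how many mice went into each library is not given in the sources used here. Replicate 1 of both DNT groups and the CD4, CD8 and TCRab libraries are taken as library kit v2. Replicate 2 of both DNT groups is taken as kit v3. The kit was read from the gene set of each reference, 27998 genes for v2 and 31053 genes for v3. What is called the kit below thus also stands for the reference and any other difference between the replicates.

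After removal of cells with under 200 genes or over 10% mitochondrial UMIs (unique molecular identifiers, which count captured transcripts), the libraries held 1549 to 6728 cells, with a median of 3987 to 15795 UMIs per cell. Cd4 was at most 0.204 CPM (UMIs of a gene scaled to an equal library total) in the 4 DNT libraries and 137 CPM in CD4 cells. Red cell markers summed to 3697 and 819 CPM in naive DNT, to 0 and 0.436 CPM in activated DNT and to 2153 to 2834 CPM in the other 3 libraries, and summed myeloid markers were highest in naive replicate 1, at 1931 CPM against 88.3 to 514 CPM elsewhere. B cell markers summed to 135 CPM in naive replicate 2 and to 5.12 to 27.2 CPM elsewhere, and natural killer cell markers to 79.2 and 74.0 CPM in naive DNT, 19.7 and 28.0 CPM in activated DNT and 0.692 to 10.5 CPM in the other 3 libraries. Of the natural killer sums, Klre1 alone held 64.2 and 58.5 CPM in naive and 19.3 and 24.5 CPM in activated DNT. Ncr1 was at 0.058 and 1.14 CPM in naive DNT. Barcodes shared between 2 libraries numbered 0 to 36. These are bulk sums over a library's cells, so more of a transcript per cell and more cells that hold it cannot be told apart from a CPM value.

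The members together made up 0.668% and 1.03% of the UMIs of naive DNT replicates 1 and 2, 1.11% and 1.47% of the activated replicates, 0.620% in CD4, 0.658% in CD8 and 0.662% in TCRab. Within each kit the activated library had the larger share. Hsp90ab1 and Hspa8, the constitutive cytosolic Hsp90 and Hsp70, had the highest mean levels over the 7 libraries, 1638 and 1607 CPM. UMI counting from the 3′ end gives 1 tag per transcript, so CPM values are not scaled by transcript length. Hspe1 followed at 752 CPM, Hsp90aa1 at 468 CPM and Dnaja1 at 343 CPM. At the other end, 14 of the 81 members had too few UMIs to be tested, among them the small heat shock proteins Hspb2, Hspb3, Hspb7, Hspb8 and Hspb9, and none of the 14 passed 0.375 CPM in any library. Hspa14, which works with ribosomes, was at 34.4 and 47.1 CPM in naive DNT, 68.1 and 106 CPM in activated DNT, 42.4 CPM in CD4, 35.3 CPM in CD8 and 42.2 CPM in TCRab.

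**Figure D1:**
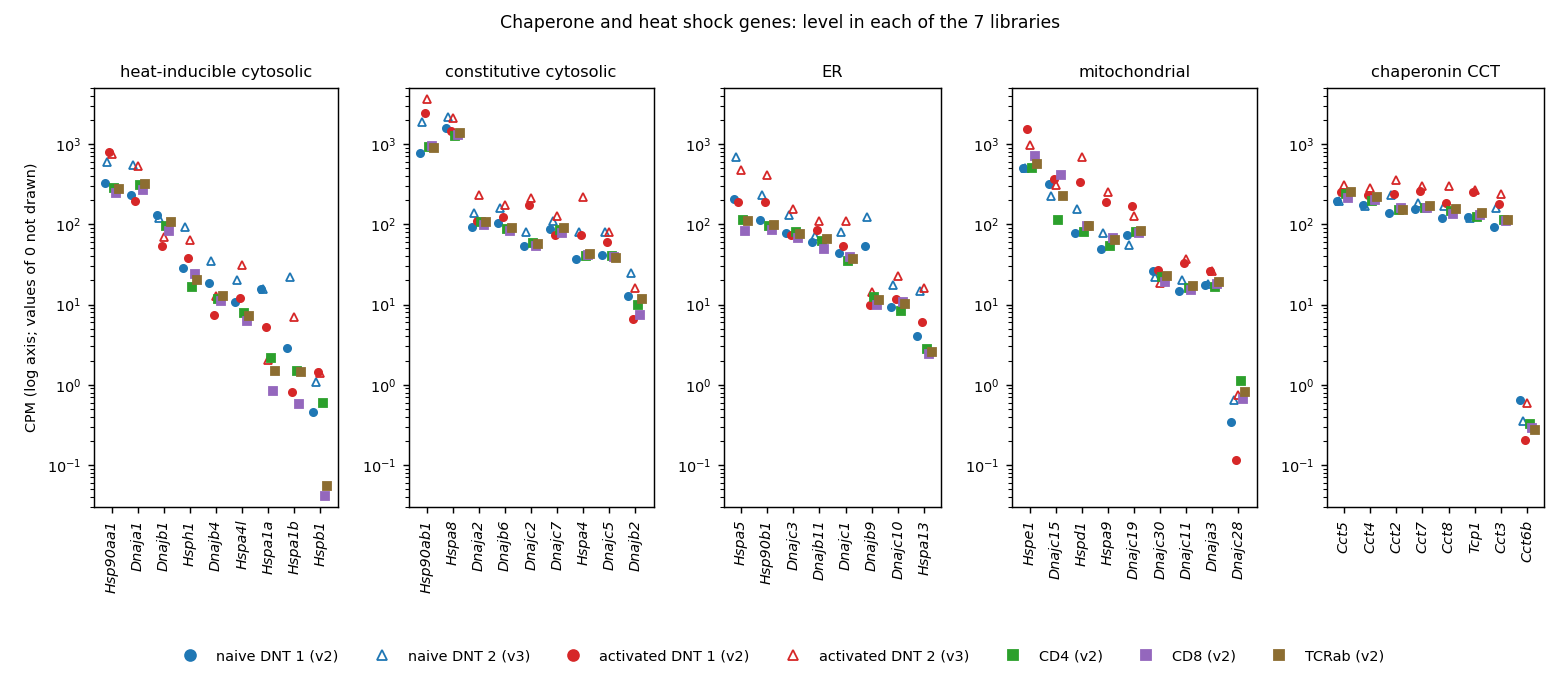
Level of each member of the 5 role groups in the 7 libraries, in CPM on a log axis. Circles and squares are kit v2 libraries and open triangles kit v3 libraries, and a member at 0 in a library is not drawn. Hspd1 and Hspa9 sit higher in both activated DNT libraries than in every other library, and Dnajb9 sits higher in both naive DNT libraries than in every other library.

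Activated against naive DNT asks which chaperones change when these cells are stimulated. Of the 67 members that passed the filter on low counts, 2 rose (Hspd1 and Hspa9) and 2 fell (Dnajb9 and Dnajb4) at an adjusted p under 0.05 in edgeR's quasi-likelihood test, fitted on all 12325 genes tested. Among all genes tested, 5.32% were called higher and 5.06% lower, so the members' shares, 2.99% in each direction, were not above the background. The libraries of each group came from different kits, and with the kit (the replicate number) as a term in the model 15 members were called higher and 7 lower, against 19.9% and 19.8% of all genes. The term removes the kit difference, with any other difference between the replicate numbers, from the spread and leaves 1 residual degree of freedom. DESeq2 called 4 members higher and 3 lower, where it called 1240 and 1150 of 12903 genes. Both activated libraries lay above both naive libraries for 25 members and below for 8, where the background was 28.1% and 29.5%. The activated library was the higher within both kits for 40 members and the lower within both for 16, where the background was 39.2% and 41.5%. The median log2 fold change was 0.25 over the 67 members and -0.05 over all genes. In the following, values for the 4 DNT libraries are CPM scaled by TMM factors (0.781 to 1.24), naive replicates 1 and 2 before activated replicates 1 and 2, and ± after a log2 fold change is its standard error.

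**Figure D2:**
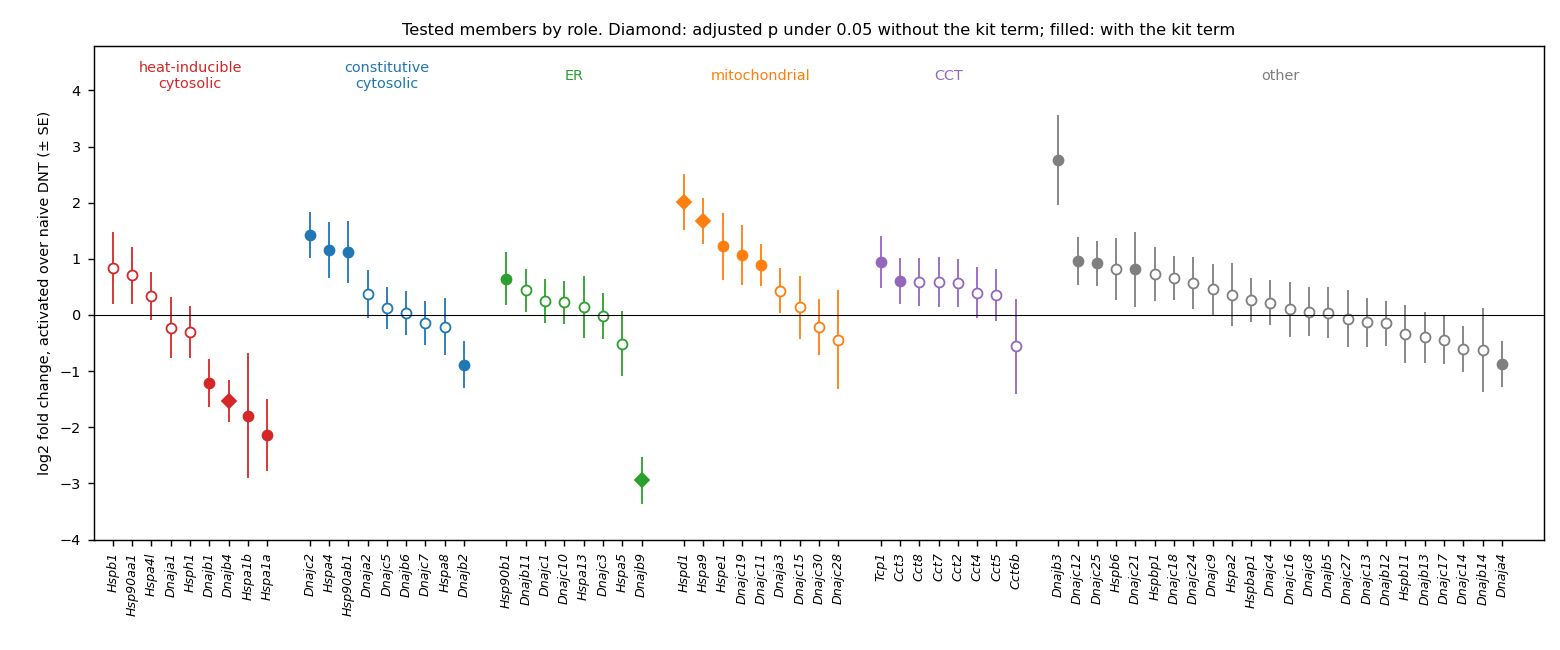
Log2 fold change of the 67 tested members in activated over naive DNT cells, with standard errors from the fit without the kit term, grouped by role. Diamonds passed the test without the kit term and filled points passed with it. The 4 diamonds are Hspd1 at 2.01 and Hspa9 at 1.67 among the mitochondrial members, Dnajb4 at -1.53 among the heat-inducible and Dnajb9 at -2.94 among the ER members.

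The mitochondrial members held both genes that rose. Of the 9 members of this group, 2 were called higher and none lower, and with the kit term 5 were called higher, Hspd1, Hspa9, Hspe1, Dnajc19 and Dnajc11. Over all genes tested, 5.32% were called higher without the kit term and 19.9% with it. The median log2 fold change of the group was 0.89. Hspd1 (ENSMUSG00000025980, GRCm38 chromosome 1, 55077835 to 55088243, minus strand) and Hspe1 (ENSMUSG00000073676, chromosome 1, 55088132 to 55091307, plus strand) encode the chamber and the lid of the Hsp60 machine and are transcribed away from each other from a shared start region. In RefSeq's promoter windows (250 bases before to 50 after each start site, GRCm38.p6), a window of Hspd1 and that of Hspe1 overlap by 285 bases and share the following stretch. It is chr1:55088053-55088082 on the plus strand, that of Hspe1, shown because it lies before the Hspe1 start site and 1 Hspd1 start site, and Hspd1 rose. The other Hspd1 window, chr1:55088194-55088493, overlaps that of Hspe1 by 4 bases, and the stretch lies after its start site. Capitals mark 2 overlapping matches, on opposite strands, to the heat shock element GAANNTTCNNGAA, which begin 89 and 84 bases before the Hspe1 start site.
Hspe1 and Hspd1: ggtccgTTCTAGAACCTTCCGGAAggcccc
This motif, searched on both strands, was in 0.603% of 32851 windows of that length, and in 6 of the 87 windows of members, which belong to Dnajb6, Hspd1, Hspe1 and Hsph1. A match is a description of the letters and not evidence of binding.

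Hspd1 was at 98.4 and 133 scaled CPM in naive and at 383 and 554 in activated cells. Both activated libraries lay far above both naive ones, and the fold was alike in the kits, 3.90 in v2 and 4.15 in v3. The group means were 116 ± 24.8 and 469 ± 120 (SD, n = 2), a log2 fold change of 2.01 ± 0.49 (edgeR, adjusted p = 0.0449). Leaving out naive replicate 1, naive replicate 2 or activated replicate 2 ended the call of Hspd1, with an adjusted p of 0.209, 0.132 and 0.0989 in edgeR, and so did thinning (0.151). With every cell thinned to 1500 UMIs, so that cells of all libraries have equal depth, 9.64% and 19.0% of naive cells and 32.7% and 37.2% of activated cells held an Hspd1 UMI. In plain CPM, which is not TMM-scaled, and without thinning, Hspd1 was at 80.9 in CD4, 94.2 in CD8 and 95.6 in TCRab. On that scale, cells with at least 2 B cell, myeloid or red cell markers were also left out. Hspd1 was then at 75.9 CPM in naive replicate 1, of the same kit, and 76.5, 92.5 and 92.8 CPM in CD4, CD8 and TCRab.

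Hspa9 (ENSMUSG00000024359, GRCm38 chromosome 18, 34937414 to 34954357, minus strand) encodes mortalin, the Hsp70 that pulls proteins into the mitochondrial matrix. Its scaled CPM was 63.8 and 66.8 in naive and 216 and 201 in activated libraries. The replicates of each group were within a few percent of each other, and the groups did not overlap. The fold was 3.38 in kit v2 and 3.01 in kit v3, and the log2 fold change was 1.67 ± 0.41 (edgeR, adjusted p = 0.0447). Without any 1 of the 4 libraries the adjusted p lay between 0.0568 and 0.211 in edgeR, and with thinned cells it was 0.125, so each of these ended the call. At equal depth 6.76% and 10.5% of naive and 22.3% and 24.6% of activated cells held an Hspa9 UMI.

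Hspe1 was at 648 and 430 in naive and 1726 and 785 scaled CPM in activated cells. The activated libraries were both higher, but they differed by more than the naive libraries did, and the gene did not pass without the kit term (log2 fold change 1.22 ± 0.60, edgeR adjusted p = 0.228). With the kit term the adjusted p was 0.00267. Hspd1 and Hspe1, made from 1 start region, thus had different levels: Hspe1 was the higher in all 7 libraries, and its fold in kit v3, 1.82, was below the 4.15 of Hspd1. Dnajc19, which serves the import motor of the inner membrane, had a log2 fold change of 1.07 ± 0.53 and Dnajc11, a protein of the outer membrane, 0.89 ± 0.37, both called only with the kit term (edgeR adjusted p = 0.00313 and 0.0126). Dnajc15, a J-domain protein of the import motor, was at 409, 190, 410 and 250 scaled CPM, with overlap of the groups. Among the 36 members with at least 20 CPM in CD4 or CD8 cells, it had the highest ratio of CD8 to CD4, as described with those libraries.

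**Figure D3:**
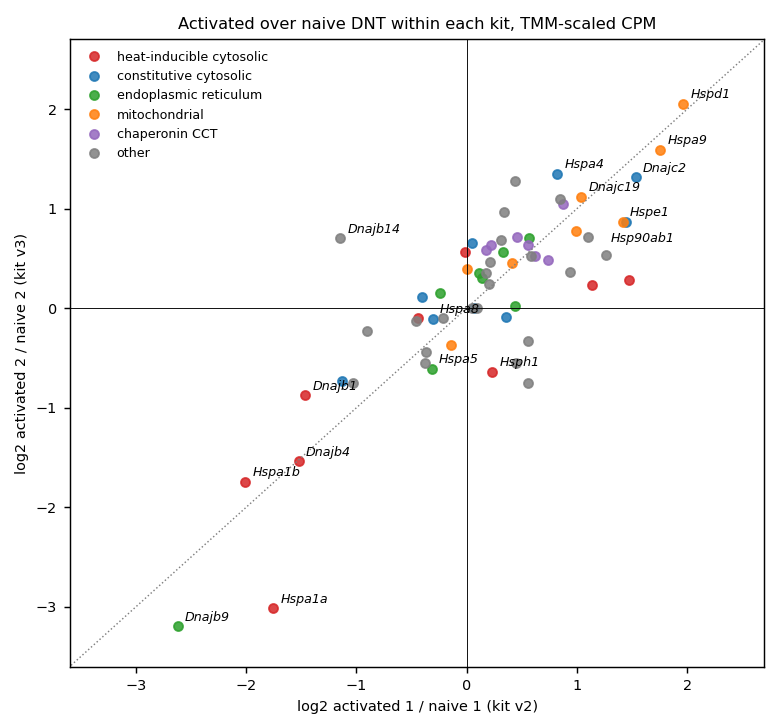
Log2 ratio of activated over naive DNT cells within kit v2 (horizontal) and within kit v3 (vertical), from TMM-scaled CPM, for tested members with a mean of at least 1 CPM. Points on the dotted line have equal ratios in both kits. Hspd1, Hspa9 and Dnajb4 lie close to the line, Hspa1a lies at -1.76 and -3.01, and Dnajb14 has opposite signs, -1.15 and 0.70.

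Of the 9 constitutive cytosolic members tested, none was called without the kit term, 1 had an unadjusted p under 0.05 (Dnajc2), DESeq2 called 2 higher, and with the kit term 3 were called higher (Hsp90ab1, Hspa4 and Dnajc2) and 1 lower (Dnajb2). With the kit term, 19.9% of all genes tested were called higher and 19.8% lower. The median log2 fold change of the group was 0.12. Hsp90ab1 (ENSMUSG00000023944, chromosome 17, 45567775 to 45573271), the constitutive Hsp90, was at 1002 and 1611 in naive and 2719 and 2934 scaled CPM in activated cells. The groups did not overlap. The log2 fold change was 1.11 ± 0.55 (edgeR, adjusted p = 0.234 without and 0.00199 with the kit term). Dnajc2, a J-domain protein of the ribosome that receives nascent chains, was at 68.9 and 69.0 in naive and 199 and 171 in activated cells, a log2 fold change of 1.43 ± 0.41 (edgeR, adjusted p = 0.0672 without and 0.000719 with the kit term). Hspa4, an exchange factor that frees clients from Hsp70, was at 47.3, 68.3, 83.5 and 174.

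Hspa8 (ENSMUSG00000015656, chromosome 9, 40800984 to 40810087), the constitutive Hsp70, differed by less than its standard error. It was at 2048 and 1835 in naive and 1657 and 1707 scaled CPM in activated libraries, a log2 fold change of -0.21 ± 0.51 (edgeR, adjusted p = 0.834 without and 0.441 with the kit term). On this scale both activated libraries lay just below both naive ones, while in plain CPM (1598, 2139, 1463 and 2121) they overlapped. Hsp90ab1 was thus below Hspa8 in both naive libraries and above it in both activated ones on the scaled CPM. Dnajb2, a partner of Hsp70 in sending proteins to degradation, was at 16.3, 21.1, 7.48 and 12.8. Dnaja2, Dnajb6, Dnajc5 and Dnajc7 had log2 fold changes between -0.15 and 0.38 and passed in neither fit.

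The heat-inducible cytosolic members were the group with a median below 0, at -0.31. Of 9 members, 1 fell (Dnajb4), 3 had an unadjusted p under 0.05 in the lower direction and none in the higher, DESeq2 called 2 lower, and with the kit term 4 were called lower, Hspa1a, Hspa1b, Dnajb1 and Dnajb4. Among all genes tested, 5.06% were called lower without the kit term and 19.8% with it. Dnajb4 (ENSMUSG00000028035, chromosome 3, 152178511 to 152210302), a J-domain partner of Hsp70, was at 23.8 and 29.9 in naive and 8.27 and 10.3 scaled CPM in activated libraries. The groups did not overlap, and the ratio of activated to naive was 0.348 in kit v2 and 0.344 in kit v3. Its log2 fold change was -1.53 ± 0.38 (edgeR, adjusted p = 0.0457). The adjusted p of Dnajb4 was between 0.06 and 0.214 without any 1 library and 0.187 with thinned cells (edgeR), so each of these ended the call. Dnajb1, the main J-domain partner of Hsp70 in the heat response, was at 167, 103, 60.6 and 56.5, a log2 fold change of -1.21 ± 0.43 (edgeR, adjusted p = 0.116 without and 0.00316 with the kit term).

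Hspa1a (ENSMUSG00000091971, chromosome 17, 34969190 to 34972156, minus strand) and Hspa1b (ENSMUSG00000090877, chromosome 17, 34956436 to 34959238, minus strand) are neighbouring copies of the inducible Hsp70. The copies are nearly the same, so reads can be shared or lost between them and the counts of each are uncertain. Their transcripts, from which the reads come, were not compared here. To show how alike the promoters are, the 200 bases before the start site of each follow, from RefSeq's windows in GRCm38.p6, on the minus strand, chr17:34972157-34972356 for Hspa1a and chr17:34959239-34959438 for Hspa1b. Capitals mark the 1 base that differs. The whole windows were identical at 296 of 300 bases (98.7%), and neither held the heat shock element as spelled above, which says only that these letters were not in the windows.
Hspa1a: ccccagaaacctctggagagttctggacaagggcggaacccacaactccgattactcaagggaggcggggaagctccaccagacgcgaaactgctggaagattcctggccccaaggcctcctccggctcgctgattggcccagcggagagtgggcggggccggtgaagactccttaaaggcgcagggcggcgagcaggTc
Hspa1b: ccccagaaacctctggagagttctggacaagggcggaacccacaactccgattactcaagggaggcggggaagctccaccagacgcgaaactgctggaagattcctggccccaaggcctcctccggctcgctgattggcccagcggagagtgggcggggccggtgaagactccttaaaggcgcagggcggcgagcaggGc
Hspa1a was at 19.9 and 13.4 in naive and 5.90 and 1.66 scaled CPM in activated cells, a log2 fold change of -2.14 ± 0.63 (edgeR, adjusted p = 0.0768 without and 0.000884 with the kit term). Both activated libraries lay below both naive ones. Hspa1b was at 3.71 and 19.0 in naive and 0.923 and 5.68 in activated cells. Its groups overlapped, and the kit v3 replicate had the higher value in both. Within each kit the activated library was lower, by a ratio of 0.248 in v2 and 0.299 in v3 (edgeR, adjusted p = 0.368 without and 0.0016 with the kit term).

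Few cells carried these transcripts. Without thinning, 99 of 4049 and 174 of 6728 naive cells held an Hspa1a UMI (2.45%, 95% exact binomial interval 1.99 to 2.97, and 2.59%, 2.22 to 2.99), and 26 of 1791 and 25 of 1549 activated cells did (1.45%, 0.95 to 2.12, and 1.61%, 1.05 to 2.37). At equal depth the shares were 1.30% and 1.08% in naive, 0.168% and 0.407% in activated, and 0.108% to 0.235% in CD4, CD8 and TCRab cells. The intervals cover counting error only, and every cell type makes chaperones, so no type served to measure free RNA in the droplets. The top 1% of cells held 76.1% and 87.2% of the naive Hspa1a UMIs. In naive replicate 2 a cell held 155 Hspa1a UMIs, and in activated replicate 1 a cell held 68 of the library's 179. In naive replicate 2, 37.5% of the 72 cells with Hspa1a at equal depth also held Hspa1b, against 1.06% of the cells without. The remaining heat-inducible members had no call in either fit. Hsp90aa1 was at 414, 514, 912 and 602, Hspa4l at 13.7, 17.1, 13.6 and 25.3, Dnaja1 at 298, 465, 220 and 433, and Hsph1 at 36.6, 79.2, 42.9 and 50.9 scaled CPM. Dnaja1 was lower in the activated library within both kits, as were 5 of the 9 heat-inducible members in all and 41.5% of all genes tested. Hsph1 was lower within kit v3 only. Both activated libraries lay above both naive ones for Hsp90aa1. Hspb1, a small heat shock protein, was at most 1.65 scaled CPM.

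Markers and stress-related genes moved beside these values. Of the 12 immediate early genes listed, which are switched on within minutes of stimulation or of tissue handling, 7 fell and none rose in activated cells (median log2 fold change -2.90), where 5.06% of all genes tested fell. Their summed level was 5706 and 10543 CPM in naive, 1462 and 3292 CPM in activated and 978 to 1510 CPM in CD4, CD8 and TCRab cells. Fos fell by 6.28 on the log2 scale and Dusp1 fell by 6.09 (edgeR, adjusted p = 0.00733 and 0.00633). Of the Hspa1a UMIs in naive replicates 1 and 2, 162 of 268 and 339 of 834 lay in cells with UMIs of at least 2 B cell, myeloid or red cell markers. These were 1527 of 4049 and 432 of 6728 cells. Without them Hspa1a was at 10.7 and 10.0 CPM in naive and 5.53 and 2.07 CPM in activated libraries (edgeR, adjusted p = 0.186 without and 0.00925 with the kit term). All 5 red cell markers were at 0 in activated replicate 1. All 8 myeloid and 7 B cell markers were above 0 in both naive libraries, as in CD4 and TCRab. In activated replicates 1 and 2, 1 myeloid marker each and 2 and 0 B cell markers were at 0. The part of immediate early genes in the difference between the groups was not tested. Dnajb4 without those cells kept its call (edgeR, adjusted p = 0.0413).

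The ER members held the largest change among the members called, and 1 of the 8 fell, where 5.06% of all genes tested did. Dnajb9 (ENSMUSG00000014905, chromosome 12, 44205559 to 44210326, minus strand), a J-domain protein of the ER lumen that serves Hspa5 and is a known target of the unfolded protein response, was at 69.4 and 106 in naive and 11.3 and 11.6 scaled CPM in activated cells. The activated libraries were close to each other and far below both naive ones. Dnajb9 fell by 2.94 ± 0.42 on the log2 scale (edgeR, adjusted p = 0.0108), and within the kits the activated level was 0.162 (v2) and 0.109 (v3) of the naive one. It is the only member that stayed called under every alternative run, with adjusted p between 2.98e-09 (DESeq2) and 0.0175 (edgeR without naive replicate 1). At equal depth 8.51% and 16.7% of naive and 2.12% and 2.58% of activated cells held a Dnajb9 UMI. Leaving out the cells with markers of other types moved its level little (58.4, 123, 10.0 and 15.5 CPM). Within the naive libraries at equal depth, cells with a UMI of Fos, Fosb, Egr1 or Atf3 had 1.18 (counting interval 0.949 to 1.47) and 1.10 (0.978 to 1.23) times the Dnajb9 level of the remaining cells. For Hspa5 these ratios were 1.40 (1.25 to 1.58) and 1.33 (1.26 to 1.40), and for Hspa1a 1.28 (0.824 to 2.02) and 1.73 (1.21 to 2.52). The intervals treat each UMI as an independent count. Without thinning, the top 1% of cells of naive replicate 2 held 87.2% of its Hspa1a UMIs. The Hspa1a intervals are therefore too narrow, and no link to the immediate early genes can be read from them.

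None of the other 7 ER members was called lower. Hspa5 (BiP; ENSMUSG00000026864, chromosome 2, 34771970 to 34777547), the Hsp70 of the ER, was at 265 and 585 in naive and 213 and 384 scaled CPM in activated cells, with overlap (log2 fold change -0.51 ± 0.58, edgeR adjusted p = 0.619 without and 0.12 with the kit term). Within each kit Hspa5 was lower in the activated library, at 0.802 (v2) and 0.656 (v3) of the naive level, and without naive replicate 2 its log2 fold change turned to 0.16. Hsp90b1, the Hsp90 of the ER, was at 144, 200, 213 and 327 and was called higher only with the kit term (edgeR, adjusted p = 0.0418). Dnajb11, Dnajc1, Dnajc3, Dnajc10 and Hspa13 had log2 fold changes between -0.02 and 0.44 and passed in neither fit. The following stretch of the Hspa5 promoter window, chr2:34772020-34772049 on the plus strand, is shown because Hspa5 and Dnajb9 were the members at least 2-fold higher in naive DNT than in CD8 cells, as given with those libraries. Capitals mark the ER stress response element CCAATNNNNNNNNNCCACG, whose first base lies 65 bases before the start site of the RefSeq window. By the gene coordinates given above, which come from another annotation, the stretch lies after the first base of the gene.
Hspa5: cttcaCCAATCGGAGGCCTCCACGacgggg
On both strands, this element was in 0.119% of the 32851 windows and in windows of 3 member genes, Dnajc3, Hsp90b1 and Hspa5. The 8-base unfolded protein response element TGACGTGG was in 0.676% of windows and in that of 1 member, Dnajc25. Neither was in the Dnajb9 window, which says nothing about its regulation. Hspa5 and Dnajb9, which share the pathway, thus had unlike folds in the DNT comparison, 0.702 and 0.13 of the naive mean.

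All 7 chaperonin CCT members with more than 1 CPM were higher in the activated library within both kits, by modest amounts, where 39.2% of all genes tested were. None of the 8 tested was called without the kit term in edgeR or by DESeq2, and none had an unadjusted p under 0.05. Tcp1 and Cct3 were called higher with the kit term, as were 19.9% of all genes tested. The median log2 fold change of the 8 was 0.58. Tcp1 was at 157 and 104 in naive and 286 and 213 scaled CPM in activated cells (log2 fold change 0.94 ± 0.46, edgeR adjusted p = 0.231 without and 0.00639 with the kit term). Cct2, Cct4, Cct5, Cct7 and Cct8 had log2 fold changes between 0.35 and 0.59. The ring is built from equal numbers of its subunits, and across the 7 libraries the means of the 7 abundant members lay within 143 (Cct3) to 237 CPM (Cct5). Cct6b, which stands in for Cct6a in testis, was under 1 CPM in every library.

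Of the 24 tested members outside these groups, none passed without the kit term. Dnajc12, Dnajc21, Dnajc25 and Dnajb3 were called higher with it and Dnaja4 lower, where 19.9% and 19.8% of all genes tested were. Dnajb3 rests on few UMIs, 1 and 13 in naive and 43 and 26 in activated libraries. Dnajc9, a chaperone of histones H3 and H4, was at 112, 63.9, 139 and 103 scaled CPM, with overlap. In cells thinned to 1500 UMIs, those with a UMI of 10 cell cycle genes (a list chosen after the data were seen) had a ratio of Dnajc9 to the rest above 1 in every library. It was 1.91 (counting interval 1.49 to 2.43) and 2.14 (1.58 to 2.87) in the activated replicates and 1.92, 2.05 and 1.82 in CD4, CD8 and TCRab. In naive replicate 1 it was 1.10, with an interval that spans 1 (0.544 to 1.98). Hspd1 had ratios of 1.33 (1.13 to 1.56) and 2.12 (1.82 to 2.46) in activated cells and 0.722 to 1.18 in the other 5 libraries. Ratios above 1 in both activated replicates were not particular to these genes. Hsp90aa1 had 1.23 and 1.57 there and Hspe1 1.26 and 1.46, while Dnajc15 was below 1 in both (0.916 and 0.766). These ratios compare cells within a library, and cells are not replicates.

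Partners of the chaperones were listed apart, by textbook role, except that Hspbp1, a member by the naming rule, is also among the heat shock regulators. For each list the background over all genes tested was 5.32% higher and 5.06% lower without the kit term, and 19.9% and 19.8% with it. DESeq2 called 1240 genes higher and 1150 lower of 12903. Of 20 cytosolic co-chaperones none was called without the kit term, 2 had an unadjusted p under 0.05, DESeq2 called 2 higher, and with the kit term 6 were called higher and 1 lower. The 4 with the smallest p were Bag2, Ppid, Ptges3 and St13, with log2 fold changes of 1.30, 1.06, 0.91 and 0.75. Of 16 genes of ER folding and the unfolded protein response, Xbp1, a transcription factor of that response, rose (log2 fold change 1.57 ± 0.40, edgeR adjusted p = 0.0498) and 8 were called higher with the kit term, among them Pdia6, Creld2 and Sdf2l1. Xbp1 thus rose where Dnajb9 fell. The call for Xbp1 ended with all deposited barcodes (edgeR, adjusted p = 0.0526), with thinned cells (0.119) and without naive replicate 1 (0.241), naive replicate 2 (0.162) or activated replicate 1 (0.141). Of 7 mitochondrial folding partners none passed without the kit term, 2 had an unadjusted p under 0.05, DESeq2 called 2 higher, and 4 were called higher with the kit term, Clpp, Lonp1, Grpel1 and Clpb. Of 9 prefoldin and CCT partners none passed without it, 1 had an unadjusted p under 0.05, DESeq2 called none, and 4 were higher (Pfdn1, Pfdn4, Pfdn6 and Txndc9) and 1 lower (Pfdn5) with it. Of 6 heat shock regulators none passed without it, none had an unadjusted p under 0.05, DESeq2 called none, and 1 (Hsf2) was higher with it. Hsf1, the main heat shock factor, was at 27.2, 37.3, 22.9 and 19.0 scaled CPM (log2 fold change -0.62 ± 0.38, edgeR adjusted p = 0.339 without and 0.0811 with the kit term).

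**Figure D4:**
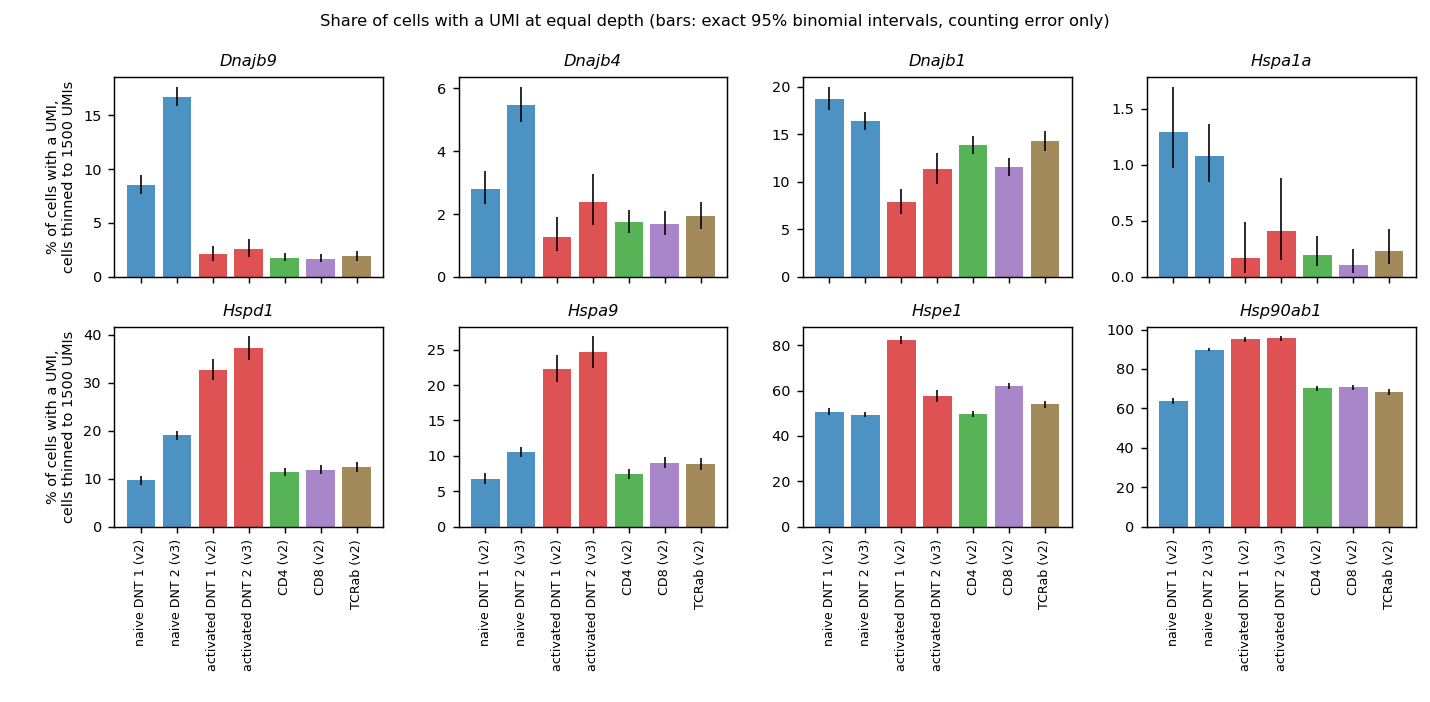
Percent of cells with at least 1 UMI of 8 members in each library after every cell was thinned to 1500 UMIs. Bars are libraries and error lines exact 95% binomial intervals, which cover counting error only. Dnajb9 reaches 8.51% and 16.7% in the naive DNT libraries against 1.70% to 2.58% elsewhere, and Hspd1 32.7% and 37.2% in the activated libraries against 9.64% to 19.0% elsewhere.

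Naive DNT against CD4, CD8 and TCRab cells asks how the resting double negative cells differ from other T cells. Each of these 3 groups has 1 library and no replicate of its own, so no test was made, and a gene was counted when it was at least 2-fold apart from the other library in both naive libraries, with the higher side at 20 CPM or more. Values are plain CPM here. Against CD4, 1 of 37 members above that minimum was higher (Dnajb9) and 1 lower (Hspb11), where 5.51% of genes were higher and 1.34% lower. Against CD8, 2 were higher (Dnajb9 and Hspa5) and 0 lower, where the background was 4.87% and 0.532%. Against TCRab, 1 was higher (Dnajb9) and 0 lower, where it was 4.16% and 1.18%. With counts this small, no departure from these backgrounds can be read.

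Dnajb9 was at 54.1 and 124 CPM in naive DNT, at 12.4 CPM in CD4, 9.91 CPM in CD8, 11.5 CPM in TCRab and 9.95 and 14.4 CPM in activated DNT. In order, the 2 naive libraries stood at the top and the other 5 lay within 9.91 to 14.4 CPM. The ratio of naive replicate 1, the library of the same kit, was 4.38 to CD4 (exact conditional interval for counting error 3.82 to 5.03), 5.46 to CD8 (4.73 to 6.32) and 4.71 to TCRab (4.05 to 5.49). The kit v3 replicate gave ratios of 10.0, 12.5 and 10.8. At equal depth 1.70% to 1.90% of CD4, CD8 and TCRab cells held a Dnajb9 UMI. Naive DNT cells also had the highest immediate early sums among these libraries, given above.

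Hspa5 was at 207 and 682 CPM in naive DNT, at 111 CPM in CD4, 83.1 CPM in CD8 and 111 CPM in TCRab. Naive replicate 1 was 2.49-fold above CD8 (2.36 to 2.63) and 1.86-fold above CD4 (1.76 to 1.96), and the kit v3 replicate was 8.21-fold and 6.13-fold above them. The naive replicates thus differed more from each other than replicate 1 did from the 3 subsets. Hspb11, the cilia transport gene, was at 28.2 and 18.6 CPM in naive DNT, 23.2 and 18.2 CPM in activated DNT, 56.7 CPM in CD4, 44.5 CPM in CD8 and 52.1 CPM in TCRab. CD4 was 2.01-fold (1.81 to 2.24) and 3.04-fold (2.80 to 3.31) above the naive replicates. Hspa1a was at 15.5 and 15.6 CPM in naive DNT and 2.17, 0.833 and 1.48 CPM in CD4, CD8 and TCRab. It is below the 20 CPM minimum, and its naive level was 10.7 and 10.0 CPM without cells that held markers of other types.

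The counts differed between the 2 naive replicates, whose kit and other differences cannot be told apart. In naive replicate 2 alone (kit v3), 13 of 43 members were at least 2-fold above each of CD4, CD8 and TCRab, where 35.5%, 38.3% and 33.7% of all genes were. In naive replicate 1 alone (kit v2), 2, 2 and 1 of 38 members were, where 6.57%, 6.05% and 5.21% of all genes were. Naive replicate 1 had a median log2 ratio to CD4 of -0.03 over 38 members, and replicate 2 of 0.53 over 43, beside 0.04 and 0.60 over all genes at 20 CPM or more. Over the 4 to 6 heat-inducible members at that level, the medians against CD4 were 0.32 and 1.31, and over the 6 ER members 0.29 and 1.25. Over the 7 CCT members they were -0.15 and 0.20.

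**Figure D5:**
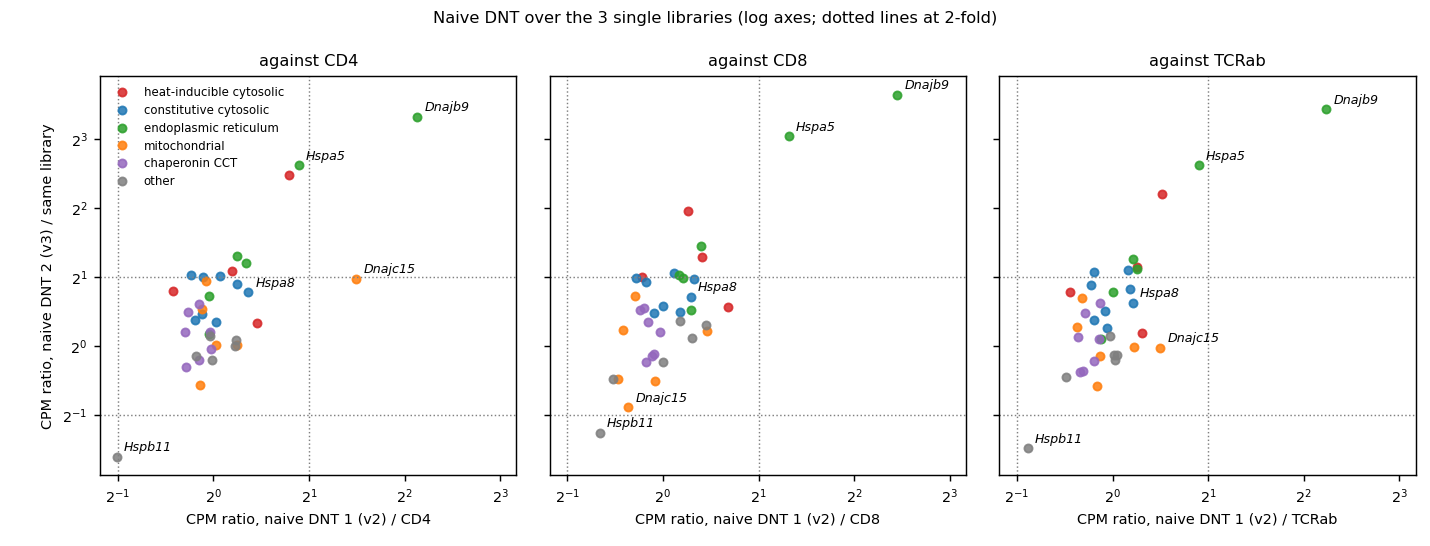
CPM ratio of naive DNT replicate 1 (horizontal) and replicate 2 (vertical) to CD4, CD8 and TCRab, for members with at least 20 CPM in both naive libraries or in the other library. Axes are logarithmic and dotted lines mark 2-fold. Dnajb9 lies beyond 2-fold on both axes in every panel, at 4.38 and 10.0 against CD4, and many members lie near 1 on the horizontal axis and higher on the vertical axis.

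Between CD8 and CD4 cells, both made with kit v2, 1 of 36 members was at least 2-fold higher in CD8 and 0 in CD4, where the background was 1.55% and 1.45%. It was Dnajc15 (ENSMUSG00000022013, chromosome 14, 77820681 to 77875125), at 113 CPM in CD4, 410 CPM in CD8 and 226 CPM in TCRab, a ratio of CD8 to CD4 of 3.63 (counting interval 3.47 to 3.79). Naive DNT cells were at 319 and 222 CPM and activated DNT cells at 362 and 310 CPM, so that all 4 lay between CD4 and CD8. At equal depth 14.8% of CD4, 45.4% of CD8, 26.3% of TCRab, 37.7% and 25.5% of naive DNT and 40.8% and 37.0% of activated DNT cells held a Dnajc15 UMI. In this gene, unlike in Dnajb9 and Hspa5, the kit v3 replicate had the lower naive value. Hspe1 was at 496 CPM in CD4 and 702 CPM in CD8, a ratio of 1.41 (1.38 to 1.45).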

How the data were processed

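Single-cell UMI count matrices of 7 libraries were used as deposited. Per the submitters' processing notes they were made with Cell Ranger (2.1.0 and 3.0.1 are named) on mm10, and the kit v3 matrices give software version 3.0.2, per the file headers. No doublet caller was run here. Barcodes under 200 detected genes or above 10% of UMIs from mitochondrial genes were dropped, and UMI counts were summed per library over the 27514 gene IDs that all matrices share. Genes outside that set held 0.400% to 0.594% of UMIs.

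Activated and naive DNT (2 libraries each) were compared on these sums with edgeR 4.0.16 (filterByExpr, TMM, robust quasi-likelihood test, Benjamini-Hochberg adjustment over all 12325 genes tested, threshold 0.05) in R 4.3.3, with no covariate. A standard error is the log2 fold change divided by the root of the F statistic. Replicate numbers coincide with the library kit, and deviations from the group means were correlated across 12325 genes (r = 0.617) between libraries of the same number, so the paired fit, with the number as a term, is printed where it changes a call. DESeq2 1.42.0 was an alternative. With 1 library each, CD4, CD8 and TCRab have no replicate check, and intervals of ratios and shares cover counting error only. For shares, cells were thinned to 1500 UMIs, and 4006, 6649, 1791, 1474, 4998, 4645 and 4259 cells were deep enough (naive, activated, CD4, CD8, TCRab). Simulated counts tested the fit without the kit term: it recovered 6% of genes changed 2-fold, 22% at 4-fold and 78% at 8-fold over 12104 genes. With the spread of the fit with the kit term it recovered 26%, 94% and 98% over 12140 genes. The simulated counts held no difference between the replicate numbers. The fit with the kit term was itself not tested on simulated counts.

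Members and lists were chosen with earlier results of these data known. Genes named by rule were the members that passed the test, all heat-inducible members, the 10 with the highest mean CPM, those past the 2-fold rule, and up to 4 co-chaperones and regulators by p. Members called only with the kit term and further partner genes were named after their values were seen. Promoter windows came from RefSeq (GRCm38.p6) and matched 68 member genes by symbol. Gene coordinates are those of GENCODE vM21. Alternatives were another scaling, no filter, other cell filters, thinning, each library left out, other fold and CPM minimums, and removal of cells with markers of other types.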

Additional observations from a re-analysis of the deposited data

How the results depend on the processing

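Without the replicate block, 2 members were called higher and 2 lower in activated DNT. With the replicate block the counts were 15 and 7, and DESeq2 gave 4 and 3. In cells thinned to 1500 UMIs they were 0 and 1, and 9 and 5 with the replicate block as well. Without cells that held markers of other types and with the replicate block they were 11 and 7. The 2 fits named last were chosen after seeing the data. Leaving out each library in turn gave 0 to 1 higher and 1 to 2 lower, with fewer residual degrees of freedom. The counts did not move by over 1.5 times with other size factors, no filter, all barcodes or a 5% mitochondrial limit. No called member turned direction under any setting run. Among named genes with no call, the log2 fold change spanned 0 when each library was left out in turn for Hsph1 (-0.75 to 0.35), Dnaja1 (-0.78 to 0.21), Hspa4l (-0.17 to 0.74), Dnajc15 (-0.32 to 0.80), Hspa5 (-0.99 to 0.16), Hspb11 (-0.83 to 0.36), Hsf2 (-0.22 to 1.81) and Sirt1 (-1.51 to 0.58). The causes were not tested.

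Naive DNT against CD4 gave 3 members at least 2-fold higher with a minimum of 10 CPM and 4 at 1.5-fold. Against TCRab it gave 2 at 10 CPM and 2 at 1.5-fold. At 1.5-fold 1 member was lower against CD8 and 1 against TCRab, and 1 was lower against TCRab with thinned cells. Leaving out a naive library gave 2 to 13 higher against CD4, 2 to 13 against CD8 and 1 to 13 against TCRab, and 0 to 1 lower against CD8 and TCRab. All the counts of 13 rest on naive replicate 2, the kit v3 library. Depth limits the rarest members: 14 of 81 had too few UMIs for any test.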
